A study of Mus musculus with 4 samples.

Results

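Sphingolipid synthesis was examined through 10 of its genes in B16F10 cells, a mouse melanoma line, after knockdown of Lmna. These were taken by symbol, 10 of 24421 gene symbols in the count matrix, and are Sptssa, Sptlc1, Sptlc2, Kdsr, Cers2, Cers5, Cers6, Degs1, Ugcg and Sgms1. The set was drawn up because Sptssa was known to fall in shLmna cells, so the values of Sptssa are given as a description, without a test. The study asked how melanoma cells change when Lmna, which encodes the lamina proteins lamin A and C, is reduced. In the control group, 2 libraries (shControl 1 and 2) came from cells with a control vector, called a control shRNA in the labels and an empty vector in the study's list of materials, and 2 libraries (shLmna 1 and 2) from cells with a vector expressing a short hairpin RNA against Lmna. All cells were of the C57BL/6 strain, were transduced with lentivirus, and were selected with puromycin and expanded. Whether a group's libraries stem from more than 1 transduction is not given in the sources used here. P-values therefore measure library-to-library spread, and the effect of the hairpin cannot be told apart from any other way in which the lines differ.

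Sphingolipids are membrane lipids built on a long-chain base. Serine palmitoyltransferase, in the endoplasmic reticulum, joins serine to a fatty acyl-CoA. It consists of the large subunits Sptlc1 and Sptlc2 (or Sptlc3) and a small subunit, Sptssa or Sptssb, that raises its activity, and it is held back by the Ormdl proteins. The product is reduced by Kdsr, acylated by a ceramide synthase (the Cers enzymes, which differ in the chain length they prefer) and desaturated by Degs1 to ceramide. Ceramide is then turned into glucosylceramide by Ugcg or into sphingomyelin by Sgms1.

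Sptssa, the small subunit, is a short gene on the minus strand at chr12:54645374-54656572 (GRCm38). Its promoter is shown beside that of Sptlc1, the large subunit that is common to all forms of the enzyme, because the log2 fold changes of these partners lay far apart (-4.14 and -0.23). The 250 bases upstream of each listed start, at chr12:54656573-54656822 and chr13:53377362-53377611, both on the minus strand, were taken from RefSeq (GRCm38.p6) and run 5′ to 3′. The annotated Sptlc1 gene reaches chr13:53377417, so part of its window lies inside the gene. Capitals mark the GC box (GGGCGG) and the CCAAT box (CCAAT), each on either strand.
Sptssa: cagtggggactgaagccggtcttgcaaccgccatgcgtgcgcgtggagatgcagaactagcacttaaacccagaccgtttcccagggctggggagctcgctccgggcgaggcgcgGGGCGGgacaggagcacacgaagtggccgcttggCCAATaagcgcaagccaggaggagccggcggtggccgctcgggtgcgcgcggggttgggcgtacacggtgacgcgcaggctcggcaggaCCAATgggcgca
Sptlc1: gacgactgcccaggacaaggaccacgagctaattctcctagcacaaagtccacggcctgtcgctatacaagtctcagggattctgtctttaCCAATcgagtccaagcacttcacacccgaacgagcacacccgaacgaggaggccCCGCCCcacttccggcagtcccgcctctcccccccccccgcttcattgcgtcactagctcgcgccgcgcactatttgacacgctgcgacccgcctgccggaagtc
Both upstream regions held at least 1 GC box and 1 CCAAT box, and Sptssa had 2 CCAAT boxes. The GC content was 68.8% for Sptssa and 61.6% for Sptlc1, against a median of 52.4% over all 32851 promoters of the same length. All 10 genes matched the table, with 14 promoters among them. A GC box was found in 9 of the 14 and in 32.7% of all promoters, and a CCAAT box in 6 of the 14 and in 33.8%. The TATA box (TATAAA) was found in 0 of the 14 and in 12.4% of all promoters, and the E-box (CACGTG) in 3 of the 14 and in 6.02%. These matches describe letters in the window and were not tested.

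RNA was profiled by bulk MARS-seq, which counts transcripts at their 3′ ends, and each library held 2494880 to 3808843 counts. Levels are given as CPM (counts per 1000000 counts), scaled by TMM, with mean ± SD for each group of 2 libraries. The counting window spans the last 1000 transcript bases in each of the 10 members, so their levels were not divided by length. A count of 3 in a library, the limit of detection used here, equals 0.803 to 1.19 CPM. Lmna itself had 2826 and 2684 counts in shControl cells and 331 and 480 in shLmna cells, a log2 fold change of -2.61 (SE 0.14). All 7 melanocyte markers had counts, with a summed level of 20117 to 24602 CPM, although Tyr, the defining pigment enzyme, had only 1 and 1 counts in shControl cells and 3 and 7 in shLmna cells. The sum covers opposite changes, since Sox10 fell (log2 fold change -0.89; edgeR adjusted p = 0.00161) and Pmel and Mlana rose (log2 fold change 0.41 and 0.51; edgeR adjusted p = 0.0258 and 0.0051). Of 14 markers of fibroblasts, endothelium, leukocytes and keratinocytes, 9 were at 0 in every library, and their summed level was 8.57 to 8.98 CPM in shControl and 3.16 to 6.27 CPM in shLmna.

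Transcripts of Sptssa were almost lost from shLmna cells, whereas none of the other 5 members that could be tested passed the edgeR test. In all, 6 of the 10 members passed the filter on low counts, and each did so in both groups. Sptssa, whose fall chose the set, is left out of the counts of calls among members given here. Of the other 5, 0 were lower and 0 higher at an edgeR adjusted p under 0.05, where 9.74% of all 9150 tested genes were lower and 5.48% higher. At an unadjusted p under 0.05, 1 (Cers2) was lower and 0 higher, against 16.5% and 13.6% of all tested genes. DESeq2 placed 0 of 7 lower and 0 higher at an adjusted p under 0.05, against 5.81% and 2.14% of its genes. Limma on the batch-corrected log2 values placed 2 of 8 lower and 1 higher, against 19.1% and 17.2%. The batch correction preceded the limma test, whose p-values take no account of it here or below. The median log2 fold change was -0.11 for the 5 members besides Sptssa and -0.0011 for all tested genes. Both shLmna libraries lay below both shControl libraries for Sptssa and Cers2, as for 30.6% of all tested genes, and above them for Cers5, as for 29.5%. In bulk RNA, fewer cells expressing a gene and less RNA per cell cannot be told apart.

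**Figure D1:**
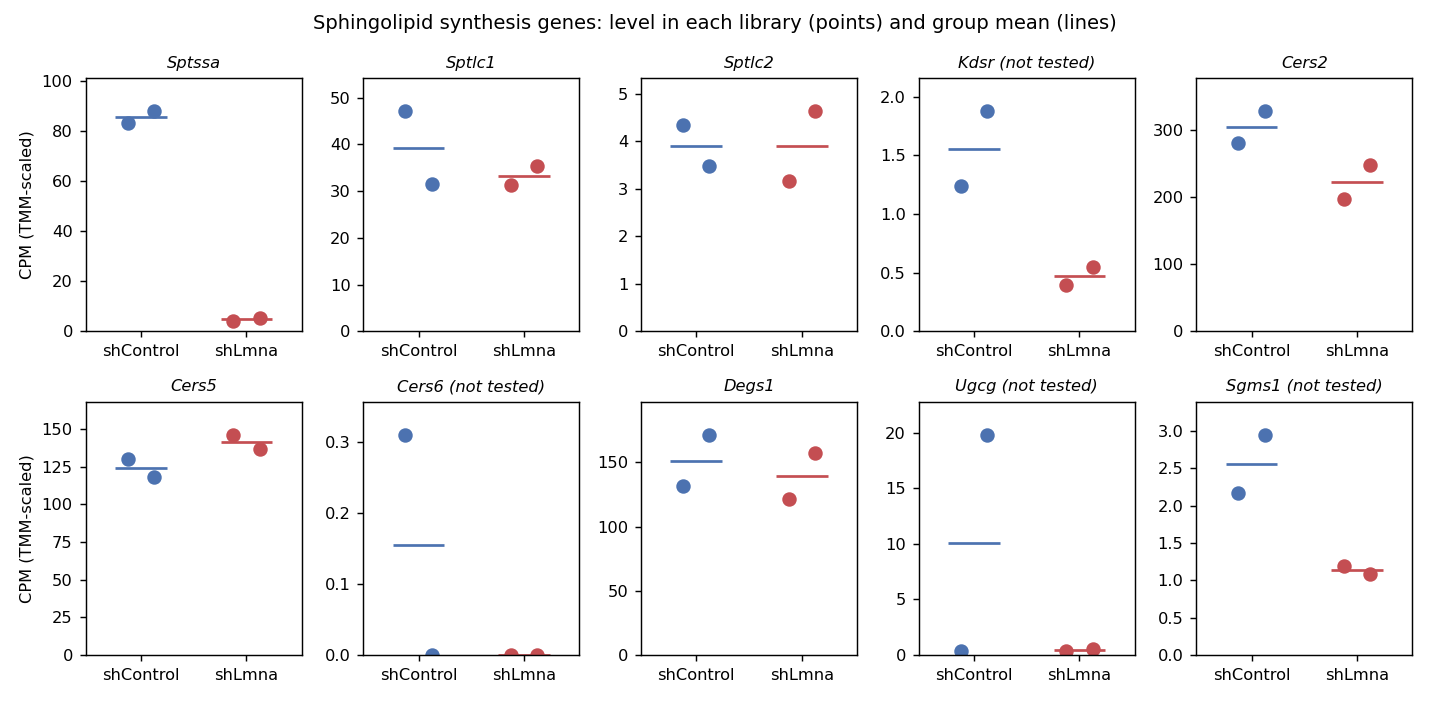
Level of the 10 members in each library, in CPM on an axis that starts at 0 and differs between panels. Points are libraries and lines are the mean of the 2 libraries of a group. Sptssa fell from 83.3 and 87.8 CPM to 3.96 and 5.45 CPM, and Ugcg was high in a single shControl library.

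The first step was read from the subunits of serine palmitoyltransferase. Sptssa had 269 and 328 counts in shControl cells and 10 and 20 in shLmna cells. The libraries of each group lay close together and the groups were far apart. Its level was 85.6 ± 3.18 CPM in shControl and 4.70 ± 1.06 CPM in shLmna (n = 2 each), a log2 fold change of -4.14 (SE 0.22, 95% interval -4.63 to -3.65), or 17.6-fold lower. Of all tested genes, 1.5% had a lower log2 fold change. With each library left out in turn the log2 fold change was -4.41 to -3.96. In the batch-corrected log2 values the difference was -1.07. Of the 31-base stretches of its 3′ window, 5.15% also occur in other genes, and counts from those cannot be told apart.

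Sptlc1, the large subunit that every form of the enzyme contains, had 152 and 118 counts in shControl cells and 79 and 130 in shLmna cells. Its groups overlapped, at 39.3 ± 10.95 and 33.3 ± 2.95 CPM. The log2 fold change was -0.23 (SE 0.22, 95% interval -0.72 to 0.27; edgeR adjusted p = 0.536), and it was 0.09 without shControl 1. Sptlc2, the catalytic partner, was scarce, with 14 and 13 counts in shControl cells and 8 and 17 in shLmna cells. Its log2 fold change was 0.04 (SE 0.44, 95% interval -0.94 to 1.01; edgeR adjusted p = 0.971), an interval that reaches about 2-fold in either direction at this depth. Sptlc3 and Sptssb, the alternative subunits, had 0 counts in all 4 libraries.

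Ratios within a library do not depend on how libraries are scaled. For every 100 counts of Sptlc1, shControl 1 and 2 held 177 and 278 counts of Sptssa, and shLmna 1 and 2 held 12.7 and 15.4. The 95% counting intervals were 145 to 217 and 225 to 346 in shControl, and 5.84 to 24.5 and 9.10 to 24.7 in shLmna. For every 100 counts of Sptlc1 there were 9.21 and 11.02 counts of Sptlc2 in shControl and 10.1 and 13.1 in shLmna. Sptssa thus went from the more abundant 3′ end of the pair to the scarcer in both shLmna libraries, and the Sptlc2 ratios had overlapping intervals in all 4.

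**Figure D2:**
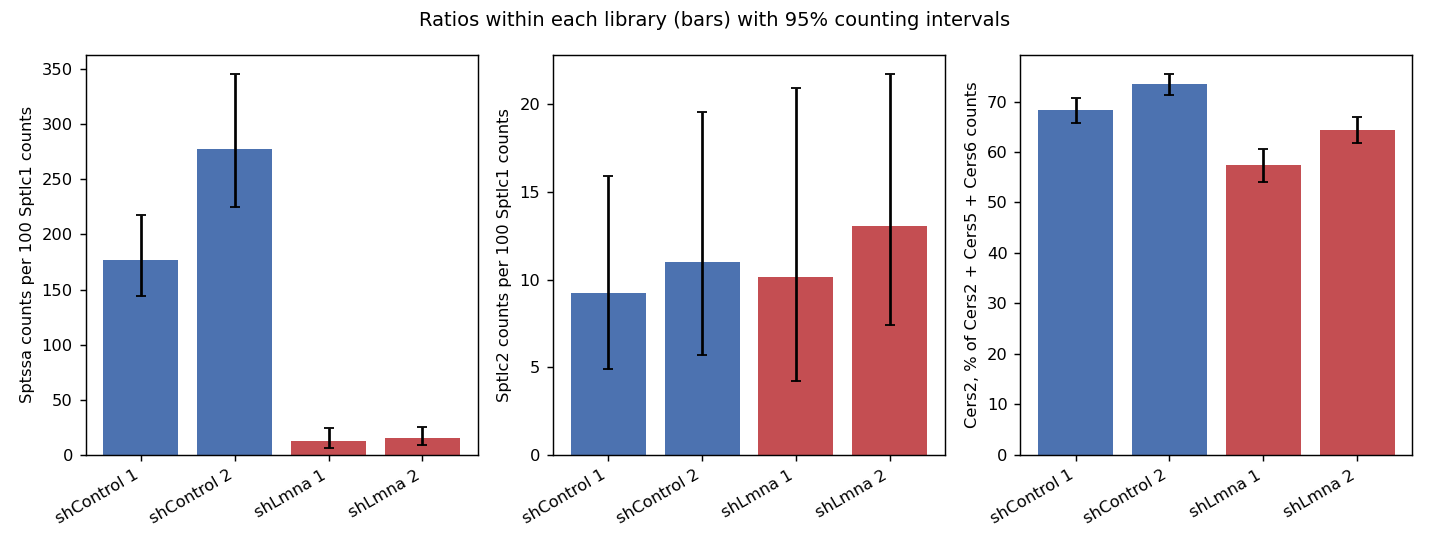
Counts of Sptssa and of Sptlc2 per 100 counts of Sptlc1, and the share of Cers2 in the counts of Cers2, Cers5 and Cers6, for each library on axes that start at 0. Bars are the 4 libraries and whiskers the 95% counting intervals. The Sptssa ratio was 177 and 278 in shControl and 12.7 and 15.4 in shLmna.

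The Ormdl proteins, which inhibit the enzyme, belong to a further list of synthesis genes, of which 5 of 13 were tested and 0 passed in either direction with edgeR or DESeq2. At an unadjusted p under 0.05, 0 were lower and 1 higher, and limma on the batch-corrected values placed 1 in each direction. Ormdl3 had 173 and 165 counts in shControl cells and 110 and 173 in shLmna cells (log2 fold change -0.10, 95% interval -0.48 to 0.28; edgeR adjusted p = 0.733). Ormdl1, named because it belongs to the same family, had 66 and 96 counts in shControl cells and 79 and 143 in shLmna cells (log2 fold change 0.61, 95% interval 0.12 to 1.10; edgeR adjusted p = 0.0921). Ormdl2, named for the same reason, had 29 and 39 counts in shControl cells and 14 and 32 in shLmna cells (log2 fold change -0.42, 95% interval -1.15 to 0.32; edgeR adjusted p = 0.439). None of the 3 passed, and their log2 fold changes had both signs.

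The second step, the reduction by Kdsr, could hardly be read. Kdsr had 4 and 7 counts in shControl cells and 1 and 2 in shLmna cells. It failed the filter, and the ratio of summed counts over summed library size, shLmna over shControl, was 0.306 with a 95% counting interval of 0.0549 to 1.16.

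Ceramide synthases came next, and Cers2 was the most abundant of all members in both groups. Cers2, which makes ceramides with very long chains, had 908 and 1224 counts in shControl cells and 497 and 908 in shLmna cells. Its shLmna libraries both lay below the shControl libraries, at 222 ± 35.9 against 304 ± 32.9 CPM. The log2 fold change was -0.45 (SE 0.15, 95% interval -0.78 to -0.12) and did not pass (edgeR adjusted p = 0.0695; range over alternatives 0.00462 to 0.415). It did pass with no filter, in the batch-corrected values, with the replicate block (edgeR adjusted p = 0.00513) and with the GC correction (edgeR adjusted p = 0.0397). Without shControl 1 its log2 fold change was -0.55. With no filter and with the block, edgeR adjusted p for Lmna was 2.05e-67 and 5.3e-40, against 7.93e-06, at a like fold change. Passing in those fits therefore adds little, and no label ties the replicates into blocks.

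Cers5, a ceramide synthase for long chains, had 421 and 442 counts in shControl cells and 369 and 502 in shLmna cells. In CPM its shLmna libraries lay above the shControl libraries, at 141 ± 6.48 against 124 ± 8.53. The log2 fold change was 0.18 (SE 0.13, 95% interval -0.10 to 0.46) and did not pass (edgeR adjusted p = 0.363). Cers6, with the same chain preference, had 1 and 0 counts in shControl cells and 0 and 0 in shLmna cells, which is at or under the limit of detection in every library.

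As a share of the counts of these 3 genes, Cers2 made up 68.3% and 73.5% in shControl and 57.4% and 64.4% in shLmna. The 95% counting intervals (Wilson) were 65.7% to 70.7% and 71.3% to 75.5% in shControl, and 54.1% to 60.6% and 61.9% to 66.9% in shLmna. Put as a ratio, there were 216 and 277 counts of Cers2 per 100 of Cers5 in shControl and 135 and 181 in shLmna. The groups did not overlap, but the gap between them was smaller than the gap between the 2 shLmna libraries, and an exact two-sided permutation test of 2 against 2 libraries cannot go below p = 0.333.

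Degs1, the desaturase that completes ceramide, had 425 and 640 counts in shControl cells and 308 and 577 in shLmna cells. The groups overlapped, at 151 ± 28.1 and 140 ± 25.0 CPM. The log2 fold change was -0.11 (SE 0.17, 95% interval -0.49 to 0.26; edgeR adjusted p = 0.694). Against Cers2 the groups did not overlap, with 46.8 and 52.3 counts of Degs1 per 100 of Cers2 in shControl and 62.0 and 63.5 in shLmna. The 95% counting intervals of shControl 2 (47.4 to 57.6) and shLmna 1 (53.6 to 71.6) did overlap. Separate groups are common with so few libraries. In level, 30.6% of all tested genes lay wholly below and 29.5% wholly above in shLmna. The ratio also carries the lower counts of Cers2, which did not pass.

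The enzymes that use ceramide were both under the filter. Ugcg, which makes glucosylceramide, had 1 and 74 counts in shControl cells and 1 and 2 in shLmna cells. A single library, shControl 2, carried nearly all of its counts, and the other 3 were at or under the limit of detection. With no filter edgeR gave Ugcg a log2 fold change of -4.30 (adjusted p = 2.28e-11). With 1 and 74 counts in shControl cells, so small a p-value cannot measure the spread between these libraries. That fit gave very small values for other genes too, with an edgeR adjusted p of 2.05e-67 for Lmna. DESeq2 gave Ugcg an adjusted p of 0.287, and without shControl 2 no fold change can be given. Sgms1, the sphingomyelin synthase of the Golgi, had 7 and 11 counts in shControl cells and 3 and 4 in shLmna cells. Both shLmna libraries were lower, and the ratio of summed counts over summed library size was 0.437 with a 95% counting interval of 0.154 to 1.10 (edgeR with no filter, adjusted p = 0.397).

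In shControl the order of mean levels in CPM was Cers2, Degs1, Cers5, Sptssa, Sptlc1, Ugcg, Sptlc2, Sgms1, Kdsr and Cers6. Neighbours in that order had separate ranges over the 2 libraries, except Ugcg and Sptlc2. In shLmna the order was Cers2, Cers5, Degs1, Sptlc1, Sptssa, Sptlc2 and Sgms1, with Kdsr, Ugcg and Cers6 at or under the limit of detection in both libraries. There the ranges of Cers5 and Degs1 overlapped, as did those of Sptssa and Sptlc2. Sptssa therefore moved from above Sptlc1 to the level of Sptlc2.

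Calls in both directions, and lower calls above all, were more frequent among genes with AT-rich 3′ ends. The last 1000 bases of the Sptssa transcript, which lie wholly in the 3′ UTR, had a GC content of 33.7%, while the other tested members had 42.2% to 47.3%. Of 625 tested genes under 36% GC, 37.6% were called lower by the limits of the study (adjusted p under 0.05, log2 fold change beyond 1 and mean normalized count over 5), and 94 had a log2 fold change of -4 or less. Of 5341 tested genes at 45% GC or more, 1.46% were called lower. Higher calls made up 3.84% of the former class and 0.618% of the latter. Over all tested genes 5.88% were called lower and 1.76% higher. Of the 5 tested members besides Sptssa, 0 were called in either direction. These GC classes were chosen after the values were seen. With a GC correction the log2 fold change of Sptssa was -3.18. Among the members under the filter, Sgms1, Kdsr and Ugcg had 31.3%, 34.2% and 36.5% GC. The part of base composition in the fall of Sptssa was not tested beyond this correction.

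**Figure D3:**
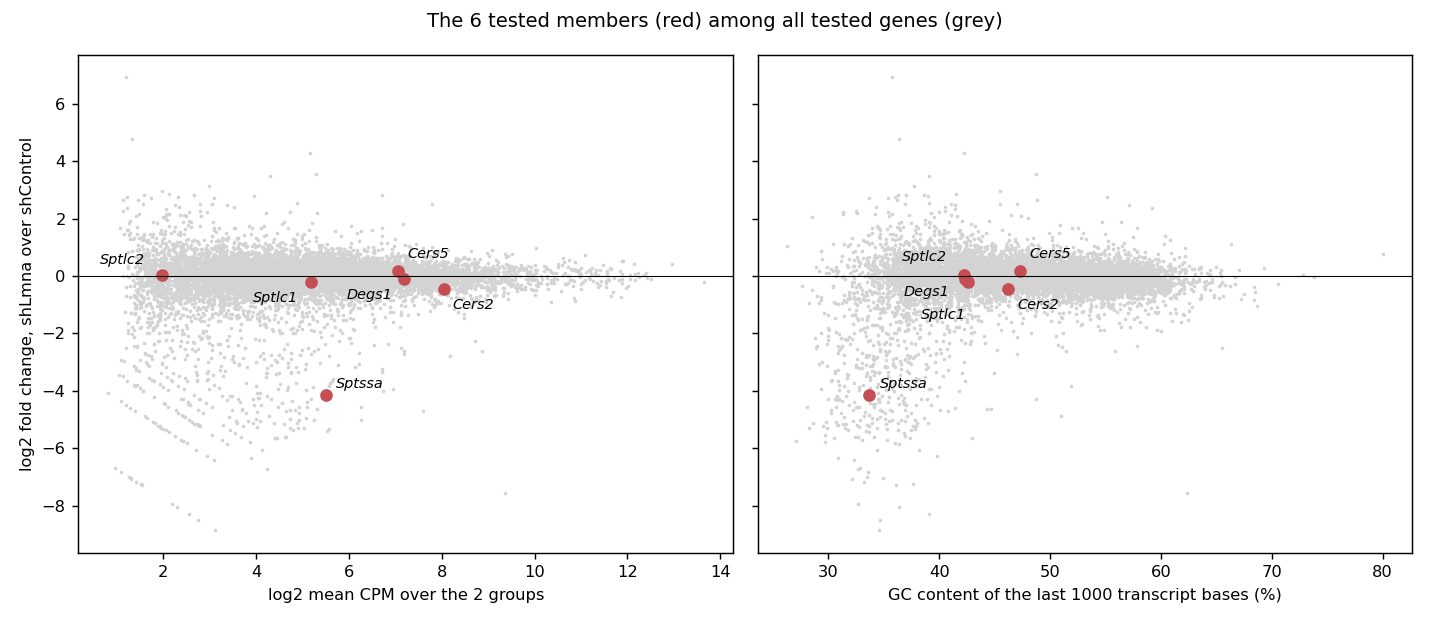
Log2 fold change, shLmna over shControl, of all tested genes (grey points) and the 6 tested members (red points), against log2 mean CPM on the left and GC content of the last 1000 transcript bases in percent on the right. Sptssa, at -4.14 and 33.7% GC, lies among the AT-rich genes with low values, and the other 5 members lie near 0.

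The tested genes whose levels over the 4 libraries were most like those of Sptssa were Rnf115, Azin1, Bivm and Ywhaq, with a root mean square distance of 0.11, 0.15, 0.15 and 0.16 on the centred log2 CPM scale. Rnf115 had 104 and 145 counts in shControl cells and 4 and 8 in shLmna cells. Azin1, an inhibitor of antizyme, had 103 and 98 counts in shControl cells and 3 and 6 in shLmna cells. Ywhaq, a 14-3-3 protein, had 651 and 976 counts in shControl cells and 36 and 58 in shLmna cells. Bivm had 30 and 39 counts in shControl cells and 0 in each shLmna library, at least 20.47-fold lower against a limit of 3 counts over the group. Its edgeR log2 fold change was -8.03, against -4.14 for Sptssa. The log2 CPM scale adds a prior count of 2, which limits how far values near 0 can fall. Rnf115, Azin1 and Bivm passed the filter on low counts through shControl only. The 3′ ends of the genes named had 34.6% to 39.3% GC. In all, 97 genes, these included, lay within 0.5 of Sptssa on that scale.

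Other genes of the pathway were taken from 5 further lists that cover synthesis, glycosphingolipids, breakdown, sphingosine phosphate and acyl chain elongation. Those that passed in edgeR with the filter, TMM scaling and group as the only term moved by less than 2-fold. In other edgeR fits of all 4 libraries Asah1 passed with a larger fall. Its log2 fold change was -1.55 with the replicate block and -1.37 with no filter. Samd8 and Ugt8a also passed lower with no filter. In the no-filter and replicate-block fits adjusted p was far smaller for Lmna too, at a like fold change, so passing there adds little. The 5 lists held 77 genes, of which 45 were tested and 32 were not, and 15 of the latter were at 0 in every library. Of the 45, 2 were lower, 4 were higher and 39 did not pass, and 0 met all limits of the study. The share was 4.44% lower and 8.89% higher, against 9.74% and 5.48% of all tested genes. For the counts by unadjusted p, DESeq2 and limma in single lists, the shares of all tested genes are those given for the members. The median log2 fold change was 0.11, against -0.0011 for all tested genes.

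**Figure D4:**
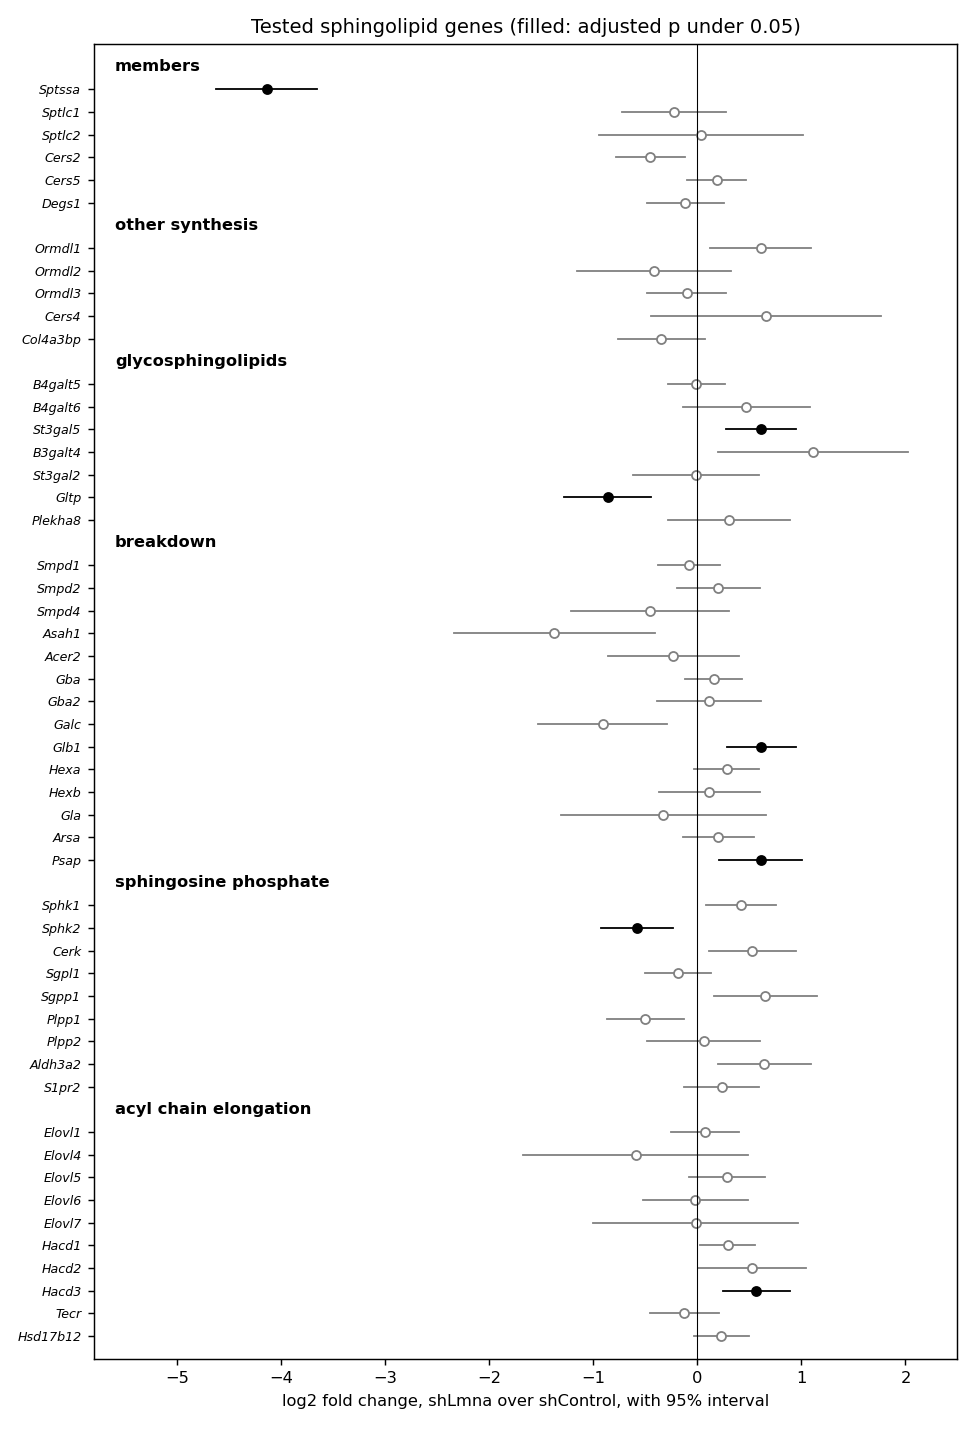
Log2 fold change, shLmna over shControl, with its 95% interval for the 6 tested members and the 45 tested genes of the further lists, grouped by list. Filled points have an adjusted p under 0.05, and Sptssa is shown for its value only. Sptssa lies at -4.14, and the 6 filled genes of the further lists lie between -0.86 and 0.62.

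Among genes of glycosphingolipids, 7 of 13 were tested, and 1 was lower and 1 higher with edgeR. At an unadjusted p under 0.05, 1 was lower and 2 higher. DESeq2 placed 1 lower and 0 higher, and limma on the batch-corrected values 1 lower and 2 higher. Gltp, a carrier of glucosylceramide between membranes, had 334 and 578 counts in shControl cells and 176 and 267 in shLmna cells. It fell from 129 ± 36.3 to 71.2 ± 2.22 CPM (log2 fold change -0.86, SE 0.19; edgeR adjusted p = 0.0132). St3gal5, the sialyltransferase that makes the ganglioside GM3, had 164 and 163 counts in shControl cells and 179 and 268 in shLmna cells. It rose from 47.2 ± 5.06 to 71.9 ± 1.57 CPM (log2 fold change 0.61, SE 0.15; edgeR adjusted p = 0.0237). B4galt5, which makes lactosylceramide, stood at 108 ± 2.06 CPM in shControl and 108 ± 0.03 in shLmna (log2 fold change -0.01, 95% interval -0.29 to 0.27; edgeR adjusted p = 0.971).

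Among genes of breakdown in the lysosome and elsewhere, 14 of 21 were tested, and 0 were lower and 2 higher with edgeR. At an unadjusted p under 0.05, 2 were lower and 2 higher, against 16.5% and 13.6% of all tested genes. DESeq2 placed 0 in either direction. With limma on the batch-corrected values 2 were lower and 3 higher, against 19.1% and 17.2% of its genes. Glb1, the lysosomal beta-galactosidase, had 167 and 179 counts in shControl cells and 180 and 297 in shLmna cells. It rose from 49.8 ± 2.69 to 76.1 ± 6.88 CPM (log2 fold change 0.62, SE 0.15; edgeR adjusted p = 0.0213). Psap, the precursor of the saposins that present lipids to lysosomal enzymes, had 316 and 252 counts in shControl cells and 341 and 431 in shLmna cells. It rose from 82.7 ± 21.5 to 126 ± 12.3 CPM (log2 fold change 0.61, SE 0.18; edgeR adjusted p = 0.0463). Hexa, a subunit of beta-hexosaminidase and the most abundant gene of the list, was at 460 ± 75.3 and 558 ± 39.6 CPM and did not pass (edgeR adjusted p = 0.218), nor did Smpd1, the acid sphingomyelinase, at 170 ± 3.997 and 161 ± 22.0 CPM (edgeR adjusted p = 0.730).

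Among genes of sphingosine phosphate, 9 of 17 were tested, and 1 was lower and 0 higher with edgeR. At an unadjusted p under 0.05, 2 were lower and 4 higher, against 16.5% and 13.6% of all tested genes. DESeq2 placed 0 in either direction. With limma on the batch-corrected values 2 were lower and 4 higher, against 19.1% and 17.2% of its genes. Sphk2, a sphingosine kinase, had 239 and 296 counts in shControl cells and 143 and 171 in shLmna cells. It fell from 76.6 ± 3.69 to 51.6 ± 7.05 CPM (log2 fold change -0.58, SE 0.15; edgeR adjusted p = 0.0317). Sgpl1, the lyase that ends the pathway, was at 162 ± 5.30 and 143 ± 23.7 CPM and did not pass (edgeR adjusted p = 0.411). The lipid phosphatase Ppap2c (also called Plpp2) did not pass either (log2 fold change 0.06, 95% interval -0.48 to 0.61), but did without shControl 1 (log2 fold change 0.61; edgeR adjusted p = 0.00201).

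Among genes of acyl chain elongation, 10 of 13 were tested, and 0 were lower and 1 higher with edgeR. At an unadjusted p under 0.05, 0 were lower and 3 higher. DESeq2 placed 0 in either direction, and limma on the batch-corrected values 0 lower and 5 higher. Hacd3, a dehydratase of the elongation cycle, had 152 and 174 counts in shControl cells and 169 and 263 in shLmna cells. It rose from 46.8 ± 0.35 to 69.2 ± 3.40 CPM (log2 fold change 0.57, SE 0.15; edgeR adjusted p = 0.0276). Tecr and Hsd17b12, reductases of the same cycle, were at 255 ± 50.4 and 217 ± 0.63 CPM in shControl and at 233 ± 4.46 and 254 ± 10.7 CPM in shLmna, and neither passed (edgeR adjusted p = 0.619 and 0.231). Col4a3bp, the ceramide transfer protein of the further synthesis list, was at 36.2 ± 0.07 and 28.6 ± 2.65 CPM (log2 fold change -0.35, 95% interval -0.77 to 0.07; edgeR adjusted p = 0.252).

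These 6 calls were lost with either shLmna library left out, while the fold changes stayed of like size. Without shLmna 1 the adjusted p of the 6 genes was 0.0756 to 0.257, and without shLmna 2 it was 0.122 to 0.261, each from edgeR with a lone library in that group, which is assumed to vary like the others. For the 4 genes that rose, the log2 fold change was then 0.52 to 0.71 and 0.53 to 0.72, and for Gltp and Sphk2 it was -0.83 and -0.71 without shLmna 1 and -0.88 and -0.43 without shLmna 2. All 6 passed without shControl 1, where Gltp was at -1.12. Without shControl 2 it was 0.0692 for St3gal5, 0.146 for Psap and 0.0525 for Sphk2. DESeq2 kept Gltp (adjusted p = 0.00835) and gave the other 5 an adjusted p of 0.0943 to 0.185. The direction of all 6 was the same in each of these fits. The log2 fold change of Gltp was -0.54 and that of Psap 0.36 without shControl 2.

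**Figure D5:**
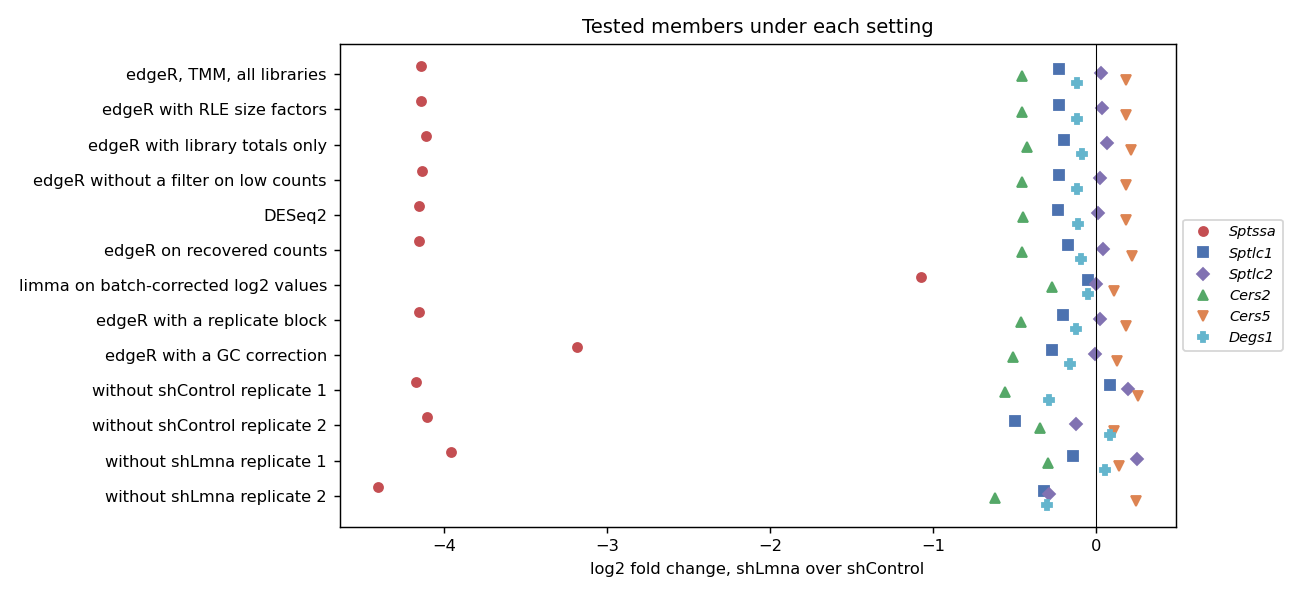
Log2 fold change, shLmna over shControl, of the 6 tested members under each processing setting, with a symbol per gene. Sptssa lies between -4.41 and -1.07 in every setting, and Sptlc1, Sptlc2 and Degs1 cross 0.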

How the data were processed

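RNA of 4 bulk cultures of B16F10 cells was profiled by MARS-seq, and the titles gave each sample its group and number. According to the study's methods, the authors trimmed reads with Cutadapt, aligned them to mm10 with STAR 2.4.2a, per the labels, and counted them with HTSeq over the last 1000 bases of RefSeq genes and a short stretch downstream. The deposited matrix of raw counts, which the authors made with marked molecular-identifier duplicates, was the input of the tests, and whether duplicates had been removed from it is not stated. Another deposited table gave signal values, each gene count divided by a library's size factor, from which whole counts were recovered as an alternative (100% of values whole within 0.1; in shControl 1 the step is close to 1, where this check is weak). It also held p-values, adjusted p-values and directions of the authors' own comparison, which were not used. A further table held log2 values that the authors had batch-corrected with ComBat, with batches not named.

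Counts were tested in R 4.3.3 with edgeR 4.0.16 (two-sided quasi-likelihood F test), after filterByExpr and TMM scaling, with group as the only term. P-values were adjusted by Benjamini-Hochberg over 9150 genes, of 24421 in the matrix. Standard errors (SE) came from the F statistic, and 95% intervals from the total degrees of freedom of the fit. Alternatives used DESeq2 1.42.0, limma 3.58.1, other scalings, no filter, recovered counts, a replicate block, a GC correction and each library left out. A loess curve of CPM deviation on the GC content of the last 1000 transcript bases (GENCODE, GRCm38) supplied the GC correction. Depth was 2494880 to 3808843 counts per library. Intervals of single counts, ratios and shares cover counting error only.

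The 10 members and all gene lists were chosen with earlier results of these data known. Genes named are the target Lmna, the members, genes of 5 further sphingolipid lists with an adjusted p under 0.05, the 2 genes of each such list with the highest mean CPM, and the 5 tested genes whose log2 CPM, centred over the 4 libraries, lay nearest to Sptssa. Any other gene named was chosen after its values were seen. Among the nearest genes, 1 has a symbol altered to a calendar date and is not named.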

Additional observations from a re-analysis of the deposited data

How the results depend on the processing

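With 2 libraries per group, counts of calls varied with the setting. Fold changes were smaller in the batch-corrected log2 values, with Sptssa at -1.07 against -4.14 and Lmna at -1.54 against -2.61 with edgeR. Genes called lower numbered 538, and 28 with limma on the batch-corrected log2 values. Genes called higher numbered 161, against 66 with DESeq2, 2 with limma, 351 with the GC correction and 60 to 232 with a library left out. Calls were 77.0% lower, against 55.6% with the GC correction, 85.6% with DESeq2, 93.3% with limma and 67.2% to 86.6% with a library left out. Members passing lower numbered 1, against 3 with no filter, 3 with limma and 2 with the GC correction. Each of these counts includes Sptssa, which was chosen for its fall, so its own call is no finding about the set. Besides Sptssa, 0 members passed lower in the main fit. Cers2 and Ugcg did so with no filter, Cers2 and Sgms1 with limma, and Cers2 with the GC correction. Members passing higher numbered 0, against 1 with limma. Genes of the further lists passing lower numbered 2, against 7 with no filter, 1 with DESeq2, 6 with limma and 0 to 6 with a library left out. Those passing higher numbered 4, against 0 with DESeq2, 15 with limma and 0 to 8 with a library left out. By adjusted p under 0.05 alone, limma placed 1988 genes lower and 1793 higher, against 891 and 501 with edgeR. The limits on fold change and abundance therefore removed most of the limma genes. Fewer libraries or more genes enter some of these fits (13616 genes with no filter, against 9150), and otherwise the cause was not tested. No label ties equal replicate numbers together, and deviations of same-numbered libraries correlated at 0.013 over 9150 genes. With a replicate block Cers2 passed lower besides Sptssa, and 5 genes of the further lists passed lower and 8 higher. The share of all tested genes passing by adjusted p was worked out only for edgeR with the filter, DESeq2 and limma. Counts of members and list genes in the other settings thus have no general rate beside them. The sign changed for genes that had not passed. With the GC correction Sptlc2 was at -0.0072, and with library totals B4galt5 was at 0.023. With a library left out, the log2 fold change ran from -0.49 to 0.087 for Sptlc1, -0.28 to 0.25 for Sptlc2, -0.30 to 0.089 for Degs1, -0.32 to 0.093 for Tecr, -0.22 to 0.054 for Smpd1, -0.026 to 0.0068 for B4galt5, -0.24 to 0.044 for Ormdl3 and -0.34 to 0.61 for Ppap2c. Among 324 values of single genes, shares and ratios under an alternative, 281 were counted as unchanged. For a single gene this meant the same direction and side of the threshold. For a share or ratio it meant that the group mean from recovered counts lay within the SD of the libraries.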

Other observations

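Further genes of the pathway, chosen after their values were seen, were uneven between libraries of a group. Samd8, an endoplasmic reticulum relative of the sphingomyelin synthases, had 6 and 32 counts in shControl cells and 2 and 0 in shLmna cells, with a ratio of summed counts over summed library size, shLmna over shControl, of 0.0591 (95% counting interval 0.00691 to 0.229). Ugt8a, which makes galactosylceramide, had 1 and 13 counts in shControl cells and 0 in each shLmna library, at least 4.15-fold lower against a limit of 3 counts over the group. As for Ugcg, most of the counts of these genes were in shControl 2. Asah1, the acid ceramidase, had 184 and 291 counts in shControl cells and 23 and 148 in shLmna cells (log2 fold change -1.37, SE 0.43; edgeR adjusted p = 0.0618). With all libraries it passed lower with no filter (edgeR adjusted p = 7.66e-11), with the replicate block (edgeR adjusted p = 2.03e-10) and with limma on the batch-corrected values (adjusted p = 0.0165). The first and second of these fits gave far smaller adjusted p for Lmna as well, so passing there adds little. It did not pass with other scalings, recovered counts or the GC correction (edgeR adjusted p = 0.052 to 0.0608), nor with DESeq2 (adjusted p = 0.527). The log2 fold change was -0.74 without shLmna 1 and -2.87 without shLmna 2. Both shLmna libraries were lower, and shLmna 1 was the lowest.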
